A study of Mus musculus with 8 samples.

Results

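The proteasome is the protease that degrades most ubiquitin-tagged proteins, and its genes were followed here through embryonic diapause and implantation. Genes were taken from the embryo expression matrix by symbol: every Psma, Psmb, Psmc, Psmd, Psme, Psmf or Psmg gene with a number, without Psmb8 and Psmb9 (immunoproteasome subunits) and without symbols marked as pseudogenes. Of 38924 genes in the matrix 53 matched, 5 were left out, and 48 remained with no repeated symbol. They comprised 31 constitutive subunits of the 26S proteasome, 7 assembly chaperones, 5 alternative activators or inhibitors, 3 tissue-restricted core subunits, and 2 genes matched by name only. Those 2 were Psme2b and Psmc3ip, which were on no list of proteasome parts. Psme2b is a near copy of the activator gene Psme2 and was not counted among the activators. Psmc3ip encodes a meiotic recombination factor that binds a proteasome ATPase and is not itself a proteasome subunit. Genes had to reach 1 in 2 libraries or more to be tested. Of the 48, 46 did so, all but Psma8 and Psmb11.

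The study sequenced RNA of mouse embryos from C57BL/6 females in 3 groups. Diapaused inner cell mass (dICM, 3 libraries) came from blastocysts whose mothers received tamoxifen and 0.5 mg of Depo Provera (a long-acting progestin) on day 3.5, and these blastocysts were collected 5 days after that. Post-implantation epiblast (Epi, 2 libraries) came from day 6.5 embryos, and inner cell mass (ICM, 3 libraries) from day 3.5 blastocysts. Each library was a pool of about 50 embryos, described in the labels as a biological replicate, and the labels name no transgene or mutation in any group. Per the labels' protocols the trophectoderm, the outer layer of the blastocyst, was lysed with antibody and complement to isolate ICM, and the labels do not state whether diapaused blastocysts were treated in the same way. The RNA was amplified before sequencing, so all levels below are of amplified RNA. Blastocysts of both kinds were flushed from superovulated females. In such pooled tissue, fewer cells of a type and less RNA per cell cannot be told apart.

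The 26S proteasome joins a 20S core to a 19S cap. The core is a stack of rings, with α subunits (Psma genes) forming the outer rings and gate, and β subunits (Psmb genes) forming the inner rings, where Psmb6, Psmb7 and Psmb5 carry the caspase-like, trypsin-like and chymotrypsin-like active sites. The cap has a base with a ring of ATPases (Psmc genes) that unfold the substrate, and a lid that holds the deubiquitinase Psmd14. Dedicated chaperones build the core (Psmg genes) and the base (Psmd5, Psmd9 and Psmd10), and activators such as Psme1 and Psme2 can replace the cap. In diapause the blastocyst pauses before it implants, with low growth and low protein synthesis, and can resume development later.

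Values are the authors' adjusted TPM, a length-scaled abundance whose columns summed to between 720674 (ICM replicate 2) and 1179026 (dICM replicate 1), and the read depth behind them is unknown. The labels were checked against marker genes. Post-implantation epiblast markers were higher in Epi than in ICM for 6 of 6 genes, and naive pluripotency markers lower for 7 of 7. Naive markers gave 0 calls of 7 between dICM and ICM. Primitive endoderm markers were higher in dICM than in ICM for 6 of 9 genes and lower for 1 (Gata6). Their summed level was 253, 217 and 351 adjusted TPM in dICM, 15 and 27.2 in Epi, and 77.1, 70.3 and 86.8 in ICM. Summed trophectoderm markers reached 43.6, 48.1 and 177 adjusted TPM in dICM, where Krt18 made up most of the highest value, 58.3 and 66.7 in Epi and 54.4, 33.2 and 53.3 in ICM, and 1 of the 7 tested was higher in dICM than in ICM (Gata3). Cdx2 averaged 0.511 adjusted TPM in dICM, 1.87 in Epi and 0.751 in ICM. Visceral endoderm markers summed to 7.48, 10.7 and 12.2 adjusted TPM in dICM, 20.5 and 64.3 in Epi and 5.62, 4.48 and 8.21 in ICM. Blood and immune markers summed to 137, 54.1 and 47.8 adjusted TPM in dICM, 2.34 and 4.08 in Epi and 5.00, 7.24 and 10.1 in ICM. The dICM mean of that sum was 1070% of the ICM mean, the largest such ratio among the marker lists. Of the 7 blood and immune markers 2 were tested, Cd68 and Laptm5, which make up most of the sum, and both were higher in dICM than in ICM. Ptprc averaged 0.172 adjusted TPM in dICM, 0.00883 in Epi and 0.154 in ICM. These marker differences accompany every proteasome difference between the groups given below, and their part in those differences was not tested.

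Between dICM and ICM, 21 proteasome genes were lower in dICM and 1 was higher, of 46 tested. Lower calls thus made up 45.7% of the proteasome genes, where 5.81% of all 17698 genes tested were called lower and 7.52% higher (limma, Benjamini-Hochberg adjusted p below 0.05 over all genes). Among the 5420 genes with a mean level of at least 10 adjusted TPM, where most subunits lie, 10.4% were called lower. The fold change was negative for 42 of the 46, with a median of -0.84 on the log2(value + 1) scale beside 0.00 over all genes. In 29 of the 46 every dICM library lay below every ICM library, a pattern found in 14.4% of all genes tested. Of the 31 constitutive subunits 19 were called lower and 0 higher, all 31 had a negative fold change, and 26 did not overlap between the groups. Without ICM replicate 1 the 21 lower calls became 13, and 13 of the 21 passed in every fit that left out a library. The single higher call, Psmg4, was lost without ICM replicate 1 or 2 or dICM replicate 1 or 3. Libraries were left out singly here and below, and a call given as lost without several libraries was lost on leaving out each of them. Rescaling the libraries without their most abundant genes moved the median of all genes to -0.23 and the calls over all genes to 856 higher and 1696 lower, against 1331 and 1029. The median of the proteasome genes was then -1.16.

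**Figure D1:**
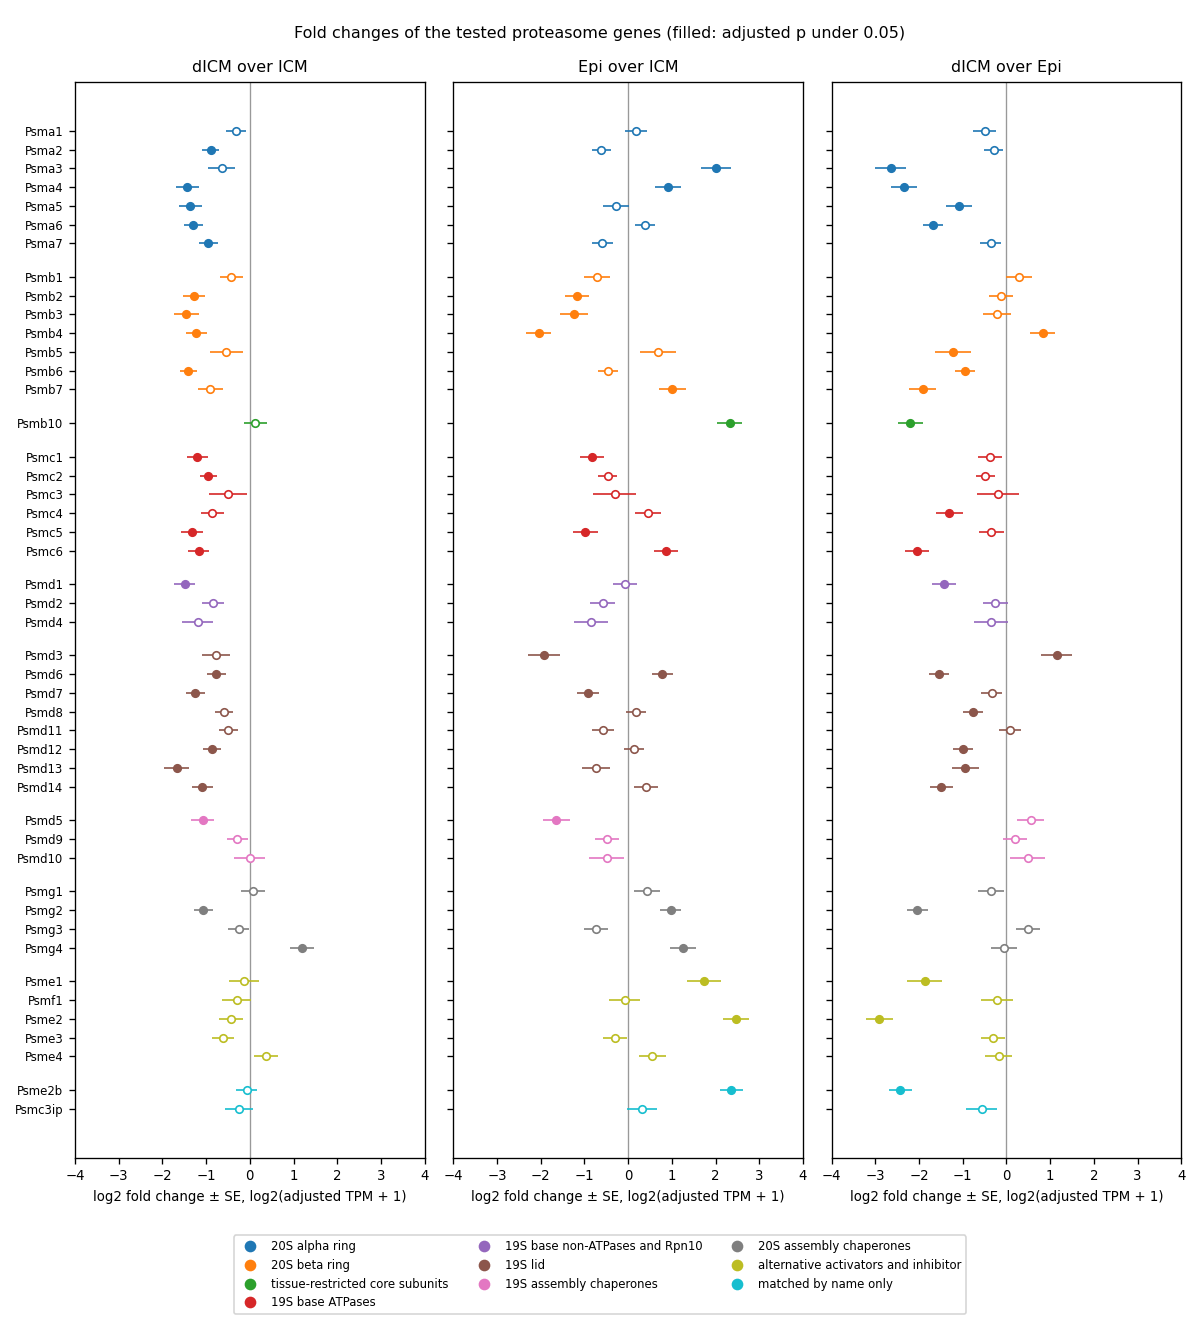
Log2 fold change on the log2(value + 1) scale (x axis) of the 46 tested proteasome genes (one line each, coloured by subcomplex) for dICM over ICM, Epi over ICM and dICM over Epi, with bars for the standard error and filled points for an adjusted p below 0.05. In dICM over ICM 42 of 46 points lie left of 0, whereas in Epi over ICM they spread to both sides, from -2.05 to 2.46. Psmb10, filled in the comparisons with Epi, passed the filter through Epi alone.

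Between Epi and ICM the calls went both ways, with 11 of the 46 higher and 8 lower in Epi. Over all genes tested 16.7% were called higher and 13.3% lower, so the shares of proteasome genes (23.9% higher and 17.4% lower) stood near those of all genes. The median was -0.17, beside 0.14 over all genes. It became -0.35 after rescaling without the most abundant genes, -0.33 with median-of-ratios size factors, -0.039 without ICM replicate 1, and -0.081 without ICM replicate 3. Psmb10 reached the minimum value in Epi alone, and without it 10 of 45 genes were higher and the median was -0.27. Rescaling turned the balance of calls: 6 higher and 13 lower without the most abundant genes, and 7 higher and 11 lower with median-of-ratios size factors, against 11 and 8. Over all genes the first setting gave 1930 higher and 2594 lower (median 0.01) and the second 2165 higher and 2695 lower (median 0.02), against 2963 higher and 2361 lower. These calls also rest on single libraries. Leaving out Epi replicate 1 left 3 higher and 2 lower, leaving out Epi replicate 2 left 6 higher and 4 lower, leaving out ICM replicate 1 left 7 higher and 4 lower, and leaving out ICM replicate 3 left 9 higher and 5 lower.

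Between dICM and Epi, 20 of the 46 were lower in dICM and 2 were higher, and without Psmb10 the lower calls were 19 of 45. Over all genes tested 18.6% were called lower and 16.0% higher, against 43.5% and 4.35% of the proteasome genes, and the median was -0.43 for the proteasome genes and -0.11 for all genes. With median-of-ratios size factors the median of the proteasome genes was -0.28 and that of all genes -0.0038. Without Epi replicate 1 the 20 lower calls became 11. The 2 higher calls, Psmd3 and Psmb4, were both lost without ICM replicate 1, dICM replicate 2 or either Epi replicate, and 1 was lost without ICM replicate 3 or dICM replicate 1 or 3. The 3 comparisons share libraries, so their counts are not independent of each other. In 18 of the 31 constitutive subunits all dICM libraries lay below all Epi and all ICM libraries, a pattern found in 8.11% of all genes tested, and 10 of the 31 were called lower in dICM against both, where 2.06% of all genes were.

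Summed over the 31 constitutive subunits, the level was 3003 ± 212 adjusted TPM in dICM, 4507 ± 95.8 in Epi and 6175 ± 624 in ICM (SD, n = 3, 2 and 3). The dICM sum was 48.6% of the ICM sum and the Epi sum was 73.0% of it, and the libraries of the 3 groups did not overlap. The 20S core summed to 1528 ± 135 in dICM, 2434 ± 429 in Epi and 3311 ± 143 adjusted TPM in ICM. For the 19S cap the sums were 1475 ± 339.8 in dICM, 2073 ± 333 in Epi and 2864 ± 629.9 adjusted TPM in ICM. The dICM sum was 46.2% of the ICM sum for the core and 51.5% for the cap. A few abundant genes carry these sums: without Psmc3 the cap in dICM stood at 42.2% of ICM and in Epi at 70.8%. The α and β rings differed in Epi, where the α ring sum was 124% and the β ring sum 38.8% of ICM, but without Psma3 the α ring stood at 86.2% and without Psmb4 the β ring at 81.6%. All these sums and percentages are of the values as deposited, without scaling to the column totals, which differed between libraries. As a share of the column total, all 48 genes together made up 0.251, 0.304 and 0.352% in dICM. In Epi they made up 0.437 and 0.468%, and in ICM 0.708, 0.799 and 0.694%.

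**Figure D2:**
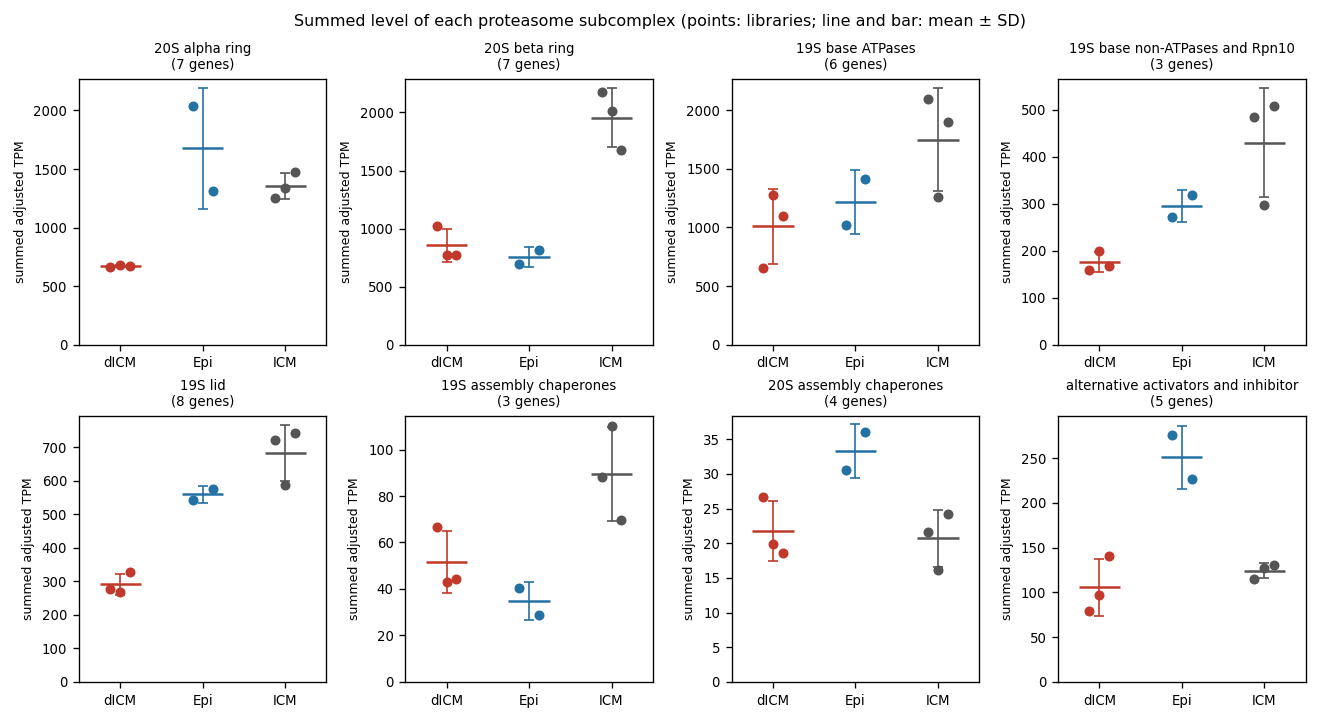
Summed level (adjusted TPM, y axis from 0) of the genes of each proteasome subcomplex, by group in the order dICM, Epi and ICM, with a point for each library, a line for the mean and bars for ± SD. In the α ring, the base non-ATPases with Rpn10, and the lid all dICM points lie below all Epi and ICM points. In the β ring and the 19S assembly chaperones dICM and Epi both lie below ICM. Epi stands highest among the 20S assembly chaperones and the alternative activators.

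Genes of the α ring had 5 of 7 members lower and 0 higher in dICM against ICM, with a median of -0.95. Beside this and each later subcomplex count for dICM over ICM stand the shares of all genes tested, 5.81% lower and 7.52% higher. Psma4, which encodes α3, a gate subunit, had 37.5, 28.4 and 28 adjusted TPM in dICM, 207 and 126 in Epi, and 83.2, 72.7 and 103 in ICM. All dICM libraries were lowest and all Epi libraries highest, with no overlap. It fell in dICM against ICM (log2 fold change -1.43 ± 0.26 SE, adjusted p = 0.0082) and against Epi (-2.35 ± 0.29 SE, adjusted p = 0.00058), and it was higher in Epi than in ICM (0.91 ± 0.29 SE, adjusted p = 0.044). That last call was lost without ICM replicate 1 or 2, dICM replicate 2 or 3, or Epi replicate 1, with an adjusted p of up to 0.32. Psma6 (α1) had 58.4, 49 and 56.2 adjusted TPM in dICM, 196 and 158 in Epi, and 119, 133 and 155 in ICM, again with dICM below both other groups. It fell in dICM against ICM (-1.29 ± 0.21 SE, adjusted p = 0.0047) and against Epi (-1.68 ± 0.23 SE, adjusted p = 0.0010), while Epi and ICM differed by 0.38 (adjusted p = 0.25).

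Psma5 (α5), Psma2 (α2) and Psma7 (α4) completed the lower calls of the α ring in dICM. Psma5 had 67.3, 66.9 and 70.2 adjusted TPM in dICM, 148 and 145 in Epi, and 130.0, 257 and 165 in ICM, with a log2 fold change of -1.36 ± 0.26 SE, adjusted p = 0.011 for dICM over ICM, and it was also lower in dICM than in Epi (-1.09 ± 0.29 SE, adjusted p = 0.021). That call was lost without either Epi replicate (0.11 and 0.094). Psma2 had 124, 119 and 119.6 adjusted TPM in dICM, 152 and 145 in Epi, and 228, 196 and 261 in ICM, and the dICM values were the tightest of the 3 groups. Its fold change for dICM over ICM was -0.90 ± 0.20 SE, adjusted p = 0.018. Psma7, the most abundant α subunit of ICM and dICM, had 271, 301 and 269 adjusted TPM in dICM, 439 and 293 in Epi, and 541, 519 and 563 in ICM, with a fold change of -0.95 ± 0.21 SE, adjusted p = 0.020 for dICM over ICM. Both of these calls depend on single libraries: Psma2 was lost without ICM replicate 1 or 3 or dICM replicate 2 (adjusted p up to 0.063), and Psma7 without ICM replicate 1 or 3 or dICM replicate 1 or 3 (up to 0.066).

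Psma3 (α7) stood apart from the rest of its ring in Epi. It had 89.1, 89.7 and 106 adjusted TPM in dICM, 862 and 415 in Epi, and 125, 132 and 199.6 in ICM, and both Epi libraries exceeded every other library although they also lay far from each other. It was higher in Epi than in ICM (2.00 ± 0.35 SE, adjusted p = 0.0035) and lower in dICM than in Epi (-2.65 ± 0.35 SE, adjusted p = 0.00073), whereas dICM over ICM was -0.65 (adjusted p = 0.22). Psma1 (α6) passed in no comparison, with 23.4 ± 5.66 adjusted TPM in dICM, 32.9 ± 3.87 in Epi and 29 ± 2.94 in ICM.

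In the β ring 4 of 7 members were lower and 0 higher in dICM against ICM, with a median of -1.22. Among the 3 catalytic subunits, Psmb6 (β1) was the one that fell in dICM against ICM, with 55.6, 49.4 and 53.4 adjusted TPM in dICM, 97.2 and 109 in Epi, and 127, 132 and 167 in ICM. The 3 groups did not overlap, with dICM lowest and ICM highest. The log2 fold change was -1.41 ± 0.20 SE, adjusted p = 0.0027 for dICM over ICM and -0.95 ± 0.23 SE, adjusted p = 0.013 for dICM over Epi. The second call was lost without either Epi replicate (0.063 and 0.093). Psmb7 (β2) had 33.7, 19 and 26.3 adjusted TPM in dICM, 98.6 and 101 in Epi, and 50.3, 36.6 and 63.4 in ICM, highest in both Epi libraries and not overlapping between dICM and ICM. It was lower in dICM than in Epi (-1.92 ± 0.31 SE, adjusted p = 0.0023) and higher in Epi than in ICM (1.01 ± 0.31 SE, adjusted p = 0.039), while dICM over ICM was -0.91 and missed the threshold (adjusted p = 0.068). The call in Epi over ICM was lost without ICM replicate 1 or 2, dICM replicate 3 or either Epi replicate (adjusted p up to 0.16). Psmb7 and Psmb6 have pseudogenes in the matrix with up to 21.1 and 7.45 adjusted TPM in a library, and a Psmb5 pseudogene reached 2.86, so reads may have been shared between the copies.

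Psmb5 (β5), the third catalytic subunit, had 37.5, 42.1 and 38.7 adjusted TPM in dICM, 76.6 and 113 in Epi, and 69.3, 30.7 and 88.9 in ICM. The dICM libraries fell inside the wide ICM range, with ICM replicate 2 lower than all of them. No difference passed for dICM over ICM (-0.54 ± 0.37 SE, adjusted p = 0.40) or Epi over ICM (0.69 ± 0.41 SE, adjusted p = 0.24). dICM was lower than Epi (-1.22 ± 0.41 SE, adjusted p = 0.048), but that call was lost on leaving out any of ICM replicate 1, the dICM replicates or the Epi replicates, with an adjusted p of up to 0.25.

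The structural β subunits Psmb4, Psmb3 and Psmb2 were lower in both dICM and Epi than in ICM. Psmb4 (β7), the most abundant proteasome transcript of ICM, had 788, 551 and 524 adjusted TPM in dICM, 317 and 373 in Epi, and 1659.9, 1591 and 1097 in ICM, in 3 groups that did not overlap, with Epi lowest. The fold change was -1.22 ± 0.25 SE, adjusted p = 0.014 for dICM over ICM, lost without ICM replicate 1 (0.057). It was -2.05 ± 0.28 SE, adjusted p = 0.0011 for Epi over ICM and 0.83 ± 0.28 SE, adjusted p = 0.048 for dICM over Epi. This last call was lost on leaving out any library but ICM replicate 2 or 3 (up to 0.21). Psmb3 (β3) had 22.1, 22.4 and 43.4 adjusted TPM in dICM, 29.2 and 35.7 in Epi, and 87.5, 73.3 and 74.1 in ICM. In this gene dICM and Epi overlapped and both lay below all ICM libraries. Its fold change was -1.45 ± 0.29 SE, adjusted p = 0.011 for dICM over ICM and -1.25 ± 0.32 SE, adjusted p = 0.019 for Epi over ICM. The call in Epi was lost without ICM replicate 1 or either Epi replicate (adjusted p up to 0.13). Psmb2 (β4) had 39.1, 55.6 and 68.5 adjusted TPM in dICM, 55.2 and 60.4 in Epi, and 138, 114 and 141 in ICM, with dICM and Epi again below all ICM libraries. Its fold changes were -1.28 ± 0.25 SE, adjusted p = 0.010 for dICM over ICM and -1.16 ± 0.28 SE, adjusted p = 0.014 for Epi over ICM, and the call in Epi was lost without either Epi replicate (0.10 and 0.066). Psmb1 (β6) passed in no comparison, at 31.2 ± 10.5 adjusted TPM in dICM, 24.4 ± 2.23 in Epi and 40.8 ± 2.9 in ICM.

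Tissue-restricted core subunits stayed near or below 1 adjusted TPM in dICM and ICM. Psmb10, the immunoproteasome counterpart of Psmb7, had 0.512, 0.0211 and 0.198 adjusted TPM in dICM, 5.17 and 4.12 in Epi, and 0.146, 0.0314 and 0.197 in ICM. Only the Epi libraries exceeded 1, so the gene passed the filter through the group in which it is high and had to differ from the others, and its levels are given as a description. It could not be tested when either Epi library was left out. Psma8, the α subunit of testis proteasomes, had 0.000555, 4.20e-05 and 1.06 adjusted TPM in dICM, 0.593 and 9.13e-05 in Epi, and 0.0135, 5.13e-09 and 0.000113 in ICM. Psmb11, the thymic β subunit, had 0.453, 0.355 and 0.316 adjusted TPM in dICM, 0.00574 and 0.160 in Epi, and 0.454, 0.155 and 0.485 in ICM. Neither was tested, and the only value above 1 was that of Psma8 in dICM replicate 3. Of the 2 immunoproteasome genes outside the set, Psmb8 lay below 0.01 adjusted TPM in every library. Psmb9, the counterpart of Psmb6, had 32.7, 50.1 and 11.1 adjusted TPM in dICM, 2.19 and 2.36 in Epi, and 22.4, 76 and 19.4 in ICM, and was lower in Epi than in ICM (-3.35 ± 0.68 SE, adjusted p = 0.0070) and higher in dICM than in Epi (3.07 ± 0.68 SE, adjusted p = 0.0089). Both calls were lost without Epi replicate 1 (0.055 and 0.058).

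**Figure D3:**
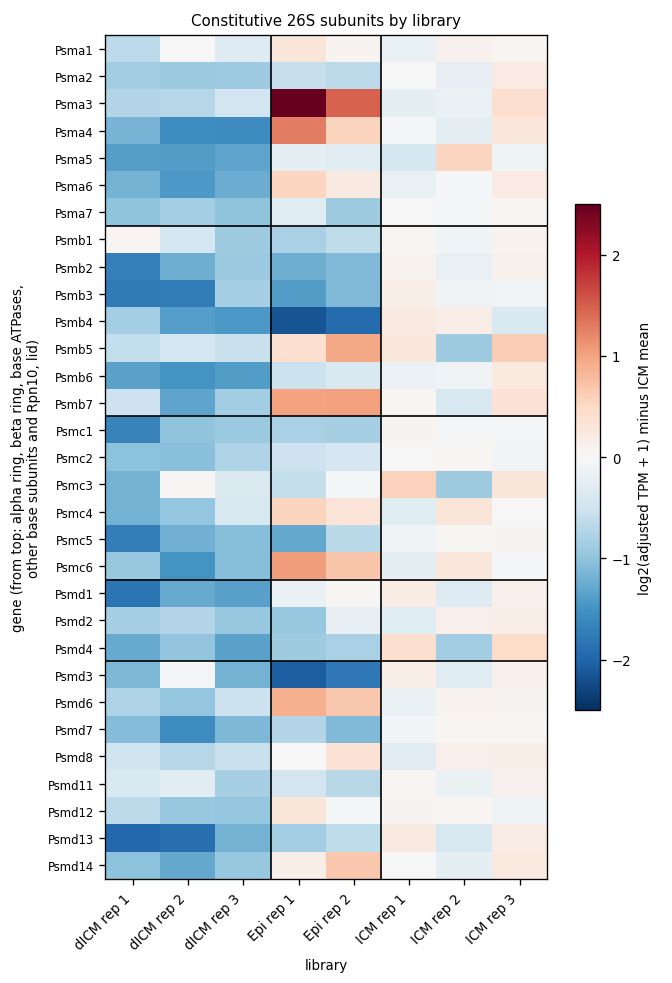
Level of each of the 31 constitutive subunits (down the side) in each library (along the bottom, in the order dICM, Epi and ICM), as the log2(adjusted TPM + 1) difference from the ICM mean of that gene. The dICM columns are blue, below the ICM mean, for nearly all subunits, and the Epi columns hold both the strongest positive values, such as Psma3, and negative values, such as Psmb4 and Psmd3.

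The promoters of the proteasome genes were searched for letters that known regulators bind. Whether a shared regulator lowered the subunit transcripts in dICM was not tested. NRF1 (gene Nfe2l1), which raises proteasome genes after proteasome inhibition in mammalian cells, binds antioxidant response elements, whose core was searched as TGACNNNGC on both strands in the RefSeq promoters of build GRCm38.p6 (250 bases before to 50 after the start). Promoters were found for 40 of the 48 genes, 43 in all. The core was in 6 of these 43 (14.0%) and in 12.4% of all 32851 promoters. It was in 3 of 20 promoters of genes lower in dICM than in ICM (15.0%) and in 3 of 22 of the other tested genes (13.6%). CCAAT, the letters bound by the NF-Y factor, was in 32.6% of the promoters of proteasome genes and in 37.4% of all promoters. The shares in proteasome promoters were near those of all promoters, and a match only describes the letters. Matches are shown for 3 genes lower in dICM (Psmb6, Psmc6 and Psmd12), for the catalytic subunit Psmb5, and for Psmd9, a chaperone. The sixth match was in Psme4. Capitals mark the core, or its reverse complement in Psmc6 and Psmd12, and each sequence is read 5′ to 3′ along the gene.
Psmb6 (chr11:70525318-70525356, + strand, core 9 to 1 bases before the start): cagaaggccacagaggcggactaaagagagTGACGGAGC
Psmb5 (chr14:54618004-54618072, - strand, core 47 to 39 bases before the start): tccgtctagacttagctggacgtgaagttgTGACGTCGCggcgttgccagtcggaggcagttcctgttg
Psmc6 (chr14:45329574-45329635, + strand, core 227 to 219 bases before the start): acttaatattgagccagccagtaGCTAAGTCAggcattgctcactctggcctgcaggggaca
Psmd12 (chr11:107479278-107479319, + strand, core 247 to 239 bases before the start): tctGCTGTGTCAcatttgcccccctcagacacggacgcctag
Psmd9 (chr5:123228129-123228189, + strand, core 31 to 23 bases before the start): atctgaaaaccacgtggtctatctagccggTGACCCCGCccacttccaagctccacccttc

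The ATPases of the 19S base had 4 of 6 members lower and 0 higher in dICM against ICM, with a median of -1.06. Psmc5 (Rpt6) had 147, 209.7 and 233 adjusted TPM in dICM, 198 and 304 in Epi, and 454, 495 and 511 in ICM. Every ICM library lay above every dICM and Epi library. The fold change was -1.33 ± 0.25 SE, adjusted p = 0.0099 for dICM over ICM and -0.98 ± 0.28 SE, adjusted p = 0.030 for Epi over ICM. The second was lost without any of the ICM replicates or Epi replicate 1 (adjusted p up to 0.23). Psmc1 (Rpt2) had 37.1, 59.3 and 62 adjusted TPM in dICM, 67.5 and 66.8 in Epi, and 126, 116 and 117 in ICM, and its fold changes were -1.20 ± 0.24 SE, adjusted p = 0.012 for dICM over ICM and -0.82 ± 0.27 SE, adjusted p = 0.046 for Epi over ICM. The second was lost on leaving out any ICM library, dICM replicate 2 or either Epi library (up to 0.18). Psmc2 (Rpt1) had 34.6, 34.1 and 41.2 adjusted TPM in dICM, 49.6 and 53.4 in Epi, and 72.1, 74.1 and 68.6 in ICM, ordered dICM, Epi, ICM with no overlap, and passed for dICM over ICM (-0.95 ± 0.19 SE, adjusted p = 0.013). Psmc6 (Rpt4) had 7.97, 5.13 and 7.3 adjusted TPM in dICM, 34.9 and 26.9 in Epi, and 13.8, 19.8 and 16 in ICM, ordered dICM, ICM, Epi with no overlap. dICM was below ICM (-1.17 ± 0.24 SE, adjusted p = 0.014) and below Epi (-2.04 ± 0.27 SE, adjusted p = 0.00075), and Epi was above ICM (0.87 ± 0.27 SE, adjusted p = 0.039). That call in Epi was lost without ICM replicate 1 or 3, dICM replicate 3 or either Epi replicate (up to 0.23).

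Psmc4 (Rpt3) and Psmc3 (Rpt5) were not called between dICM and ICM. Psmc4 was lower in dICM than in Epi (-1.30 ± 0.30 SE, adjusted p = 0.011), which was lost without Epi replicate 1 (0.086). Its levels were 15.5, 18.2 and 27.5 adjusted TPM in dICM, 54.7 and 46.4 in Epi, and 29.5, 45.6 and 36.6 in ICM. Psmc3, the most abundant proteasome transcript of dICM and Epi, had 412, 948 and 726 adjusted TPM in dICM, 619 and 915 in Epi, and 1399, 506 and 1149 in ICM. The groups overlapped throughout, with ICM replicate 2 below the other ICM libraries, and no comparison passed (adjusted p = 0.51 for dICM over ICM).

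Of the base scaffold genes, Psmd1 (Rpn2) had 40.3, 60.2 and 56.5 adjusted TPM in dICM, 131 and 149.6 in Epi, and 167, 117 and 160.2 in ICM. dICM lay below both other groups, which overlapped each other. dICM was below ICM (-1.49 ± 0.24 SE, adjusted p = 0.0049) and below Epi (-1.42 ± 0.27 SE, adjusted p = 0.0048). Psmd2 (Rpn1), the other scaffold, had 36.5 ± 2.61 adjusted TPM in dICM, 45.2 ± 16.3 in Epi and 66.5 ± 11.6 in ICM, and missed the threshold for dICM over ICM (-0.83 ± 0.25 SE, adjusted p = 0.063). Psmd4 (Rpn10), a receptor for ubiquitin chains, had 82.3, 100.2 and 77.3 adjusted TPM in dICM, 107 and 113 in Epi, and 264, 107 and 275 in ICM. Its ICM libraries ranged widely, with replicate 2 lowest, and dICM over ICM missed the threshold (-1.19 ± 0.35 SE, adjusted p = 0.056).

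Lid genes had 5 of 8 members lower and 0 higher in dICM against ICM. Psmd13 (Rpn9) had the lowest fold change of the set, -1.67 ± 0.28 SE, adjusted p = 0.0056 for dICM over ICM, with 75, 80.2 and 131 adjusted TPM in dICM, 166 and 192 in Epi, and 347, 225 and 336 in ICM. The 3 groups did not overlap. It was also lower in dICM than in Epi (-0.94 ± 0.32 SE, adjusted p = 0.046). That call was lost on leaving out any library but ICM replicate 2 and dICM replicate 3, with an adjusted p of up to 0.20. Psmd14 (Rpn11), the deubiquitinase that removes ubiquitin from substrates as they enter, had 51.3, 42.5 and 53.6 adjusted TPM in dICM, 116 and 167 in Epi, and 105, 88.2 and 124 in ICM. It was lower in dICM than in Epi (-1.49 ± 0.26 SE, adjusted p = 0.0033) and than in ICM (-1.08 ± 0.24 SE, adjusted p = 0.018). The second call was lost without ICM replicate 1 or 3 or dICM replicate 2 (up to 0.062). Psmd7 (Rpn8), the partner of Psmd14, had 47.8, 34.3 and 46.6 adjusted TPM in dICM, 61.6 and 47.2 in Epi, and 97.3, 106 and 105 in ICM. It was lower in dICM than in ICM (-1.25 ± 0.22 SE, adjusted p = 0.0069) and lower in Epi than in ICM (-0.91 ± 0.25 SE, adjusted p = 0.024). The second call was lost without ICM replicate 1 or 3 or either Epi replicate (up to 0.17).

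Psmd12 (Rpn5) and Psmd6 (Rpn7) were lower in dICM than in both other groups. Psmd12 had 34.2, 27.6 and 27.4 adjusted TPM in dICM, 67.6 and 52.8 in Epi, and 57.2, 56.7 and 49.9 in ICM, with a fold change of -0.86 ± 0.21 SE, adjusted p = 0.027 for dICM over ICM and -0.99 ± 0.23 SE, adjusted p = 0.012 for dICM over Epi. Its first call was lost without any ICM replicate or dICM replicate 2 or 3 (adjusted p up to 0.092), and its second without Epi replicate 1 (0.11). Psmd6 had 29.6, 25.8 and 34.9 adjusted TPM in dICM, 96 and 82.7 in Epi, and 45.5, 55 and 54.3 in ICM, with 3 groups that did not overlap and Epi highest. Its fold change was -1.55 ± 0.24 SE, adjusted p = 0.0015 for dICM over Epi. The calls for dICM over ICM (-0.76 ± 0.21 SE, adjusted p = 0.044) and Epi over ICM (0.78 ± 0.24 SE, adjusted p = 0.035) were less stable: the first was lost on leaving out any library but dICM replicate 3 (up to 0.13), and the second without ICM replicate 1 or 3 or either Epi replicate (up to 0.21).

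Psmd3 (Rpn3) took another course. It had 12.8, 28.2 and 12.1 adjusted TPM in dICM, 6.2 and 7.64 in Epi, and 32.8, 23.2 and 31.7 in ICM, with Epi lowest and dICM overlapping ICM. It was lower in Epi than in ICM (-1.92 ± 0.37 SE, adjusted p = 0.0054, lost without Epi replicate 1 at 0.055) and higher in dICM than in Epi (1.15 ± 0.37 SE, adjusted p = 0.039). That call was lost without ICM replicate 1 or 3, dICM replicate 2 or either Epi replicate (up to 0.19). Psmd8 (Rpn12), the least abundant constitutive subunit of dICM and ICM, had 4.92, 4.16 and 4.72 adjusted TPM in dICM, 7.35 and 9.79 in Epi, and 5.94, 8.17 and 8.32 in ICM and was lower in dICM than in Epi (-0.76 ± 0.24 SE, adjusted p = 0.035). That call was lost without any dICM or Epi replicate (up to 0.21). Psmd11 (Rpn6) passed in no comparison, with 21.5 ± 4.3 adjusted TPM in dICM, 20.0 ± 2.58 in Epi and 30.3 ± 3.2 in ICM.

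**Figure D4:**
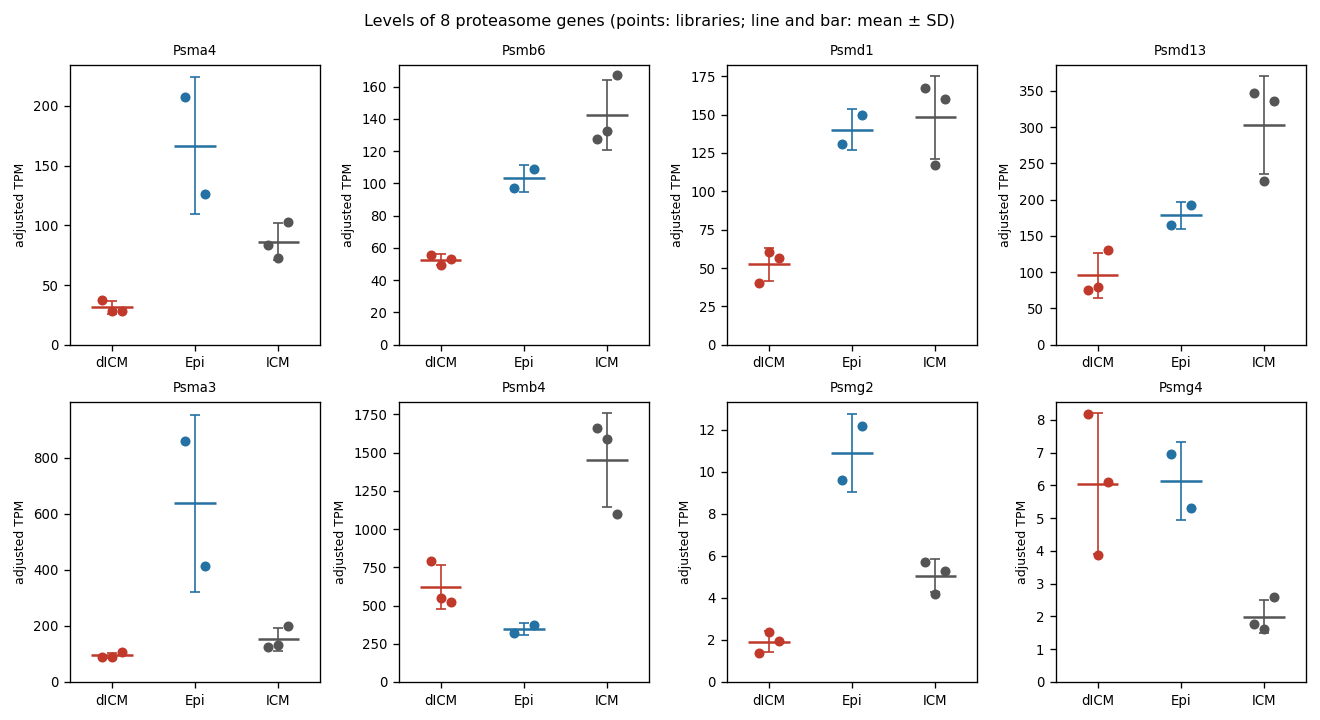
Level (adjusted TPM, y axis from 0) of 8 proteasome genes by group in the order dICM, Epi and ICM, with a point for each library, a line for the mean and bars for ± SD. Psma4, Psmb6, Psmd1, Psmd13 and the chaperone Psmg2 have their lowest points in dICM. Psma3 has its highest in Epi, Psmb4 its lowest in Epi, and the chaperone Psmg4 its lowest in ICM.

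Of the assembly chaperones, 2 of 7 were lower and 1 was higher in dICM against ICM, with a median of -0.26. The shares of all genes were 5.81% lower and 7.52% higher, and 7 genes are few to set beside them. Psmg4 (PAC4) was the only proteasome gene of the 46 called higher in dICM, with 8.17, 3.87 and 6.09 adjusted TPM in dICM, 6.97 and 5.3 in Epi, and 1.78, 1.62 and 2.59 in ICM. All ICM libraries were lowest and dICM overlapped Epi. The fold change was 1.20 ± 0.27 SE, adjusted p = 0.020 for dICM over ICM and 1.25 ± 0.30 SE, adjusted p = 0.015 for Epi over ICM. The first was lost without ICM replicate 1 or 2 or dICM replicate 1 or 3 (adjusted p up to 0.070), and the second without Epi replicate 1 (0.12). Psmg2 (PAC2), which pairs with Psmg1 to start the α ring, had 1.38, 2.37 and 1.96 adjusted TPM in dICM, 9.59 and 12.2 in Epi, and 5.72, 4.17 and 5.29 in ICM, in 3 groups without overlap. It was lower in dICM than in ICM (-1.07 ± 0.22 SE, adjusted p = 0.014, lost without ICM replicate 1 at 0.057) and than in Epi (-2.04 ± 0.24 SE, adjusted p = 0.00048), and higher in Epi than in ICM (0.97 ± 0.24 SE, adjusted p = 0.018, lost without Epi replicate 1 at 0.061 or Epi replicate 2 at 0.13). Its partner Psmg1 (PAC1) passed in no comparison, at 11.8 ± 3.32 adjusted TPM in dICM, 15.2 ± 3.35 in Epi and 11.1 ± 2.64 in ICM, and neither did Psmg3 (PAC3), the partner of Psmg4, at 2.02 ± 0.712 in dICM, 1.12 ± 0.0996 in Epi and 2.58 ± 0.625 in ICM.

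Among the chaperones of the base, Psmd5 (S5b) had 39.4, 31 and 26.8 adjusted TPM in dICM, 25.4 and 18.1 in Epi, and 66.4, 91.8 and 53.6 in ICM. All ICM libraries lay above all others. It was lower in dICM than in ICM (-1.08 ± 0.27 SE, adjusted p = 0.031) and lower in Epi than in ICM (-1.64 ± 0.30 SE, adjusted p = 0.0048). The first was lost without ICM replicate 1 or 2 or dICM replicate 2 or 3 (adjusted p up to 0.089). Psmd9 (p27) and Psmd10 (gankyrin) passed in no comparison, and the fold changes for dICM over ICM were -0.29 and -0.00. Pomp, the core maturation factor whose symbol lies outside the set, had 90.5, 129 and 91.1 adjusted TPM in dICM, 189 and 198 in Epi, and 179.8, 160.2 and 204 in ICM, and was lower in dICM than in ICM (-0.82 ± 0.22 SE, adjusted p = 0.042). That call was lost on leaving out any library but ICM replicate 2 and dICM replicate 2 (up to 0.12).

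The alternative activators and the inhibitor gave 0 calls of 5 between dICM and ICM, and 2 of 5 were higher in Epi than in ICM. Of all genes tested 5.81% were lower and 7.52% higher in dICM than in ICM, and 16.7% were higher in Epi than in ICM. With 5 genes, 0 calls do not set the activators apart from all genes. Psme2 (PA28β) had 2.19, 3.47 and 4.21 adjusted TPM in dICM, 28 and 33.1 in Epi, and 4.02, 6.82 and 3.73 in ICM. Both Epi libraries lay far above the others, and dICM overlapped ICM. It was higher in Epi than in ICM (2.46 ± 0.31 SE, adjusted p = 0.00066) and lower in dICM than in Epi (-2.90 ± 0.31 SE, adjusted p = 0.00026, the lowest of that comparison among the 46). Psme1 (PA28α), with which it forms a ring that caps the core, had 27.2, 36.6 and 59.6 adjusted TPM in dICM, 173 and 123 in Epi, and 29.6, 57.3 and 47.1 in ICM, and its fold changes were 1.73 ± 0.39 SE, adjusted p = 0.011 for Epi over ICM and -1.87 ± 0.39 SE, adjusted p = 0.0070 for dICM over Epi. Both were lost without Epi replicate 1 (0.10 and 0.067). Psme1 and Psme2 lie on chromosome 14 with 1 protein-coding gene between them in RefSeq. Psme2b had 1.46, 2.18 and 2.27 adjusted TPM in dICM, 19 and 11.6 in Epi, and 2.42, 2.03 and 1.9 in ICM, with 2.35 for Epi over ICM (adjusted p = 0.00037) and -2.43 for dICM over Epi (adjusted p = 0.00030), but reads of this near copy and of Psme2 may have been shared, so its value is uncertain.

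Psme3 (PA28γ), the nuclear activator, passed in no comparison and had 34.8 ± 7.72 adjusted TPM in dICM, 42.9 ± 2.15 in Epi and 53.8 ± 11 in ICM. Psme4 (PA200), known for degradation of acetylated histones, had 25 ± 7.12 in dICM, 27.7 ± 0.829 in Epi and 19 ± 5.5 in ICM. It was 1 of only 4 genes of the 46 with a positive fold change for dICM over ICM (0.38, adjusted p = 0.43). Psmf1 (PI31), a regulator of the core, had 1.44 ± 0.623 in dICM, 1.97 ± 1.45 in Epi and 1.99 ± 0.588 in ICM, also without a call. Psmc3ip, matched by name only, had 5.74, 7.81 and 8.5 adjusted TPM in dICM, 14.2 and 8.82 in Epi, and 9.13, 5.59 and 13.1 in ICM, and passed in no comparison, with -0.25 for dICM over ICM (adjusted p = 0.69).

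**Figure D5:**
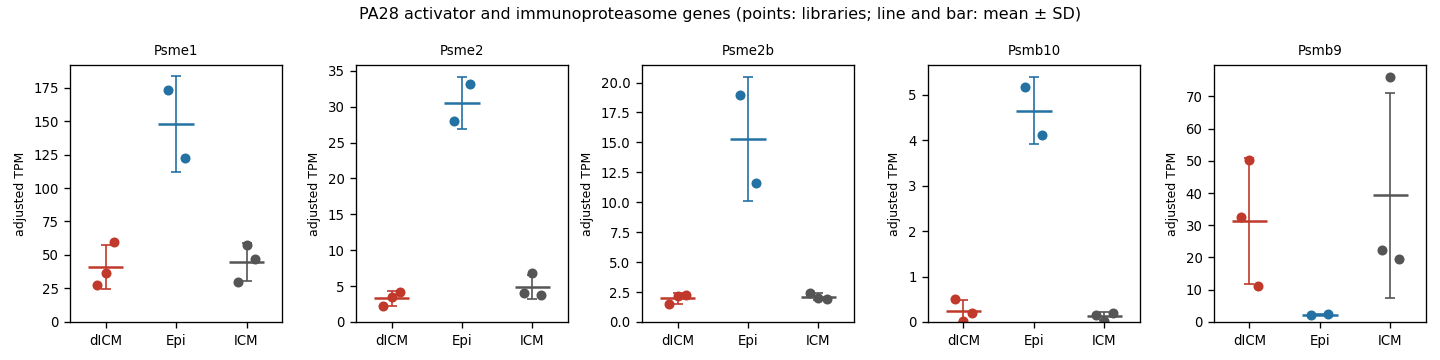
Level (adjusted TPM, y axis from 0) of the activator genes Psme1, Psme2 and Psme2b and of the immunoproteasome genes Psmb10 and Psmb9 by group in the order dICM, Epi and ICM, with a point for each library, a line for the mean and bars for ± SD. In all but Psmb9 both Epi points lie above all others, and in Psmb9 both lie below all others.

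Proteasome partners outside the gene set were taken from a list of named genes. Of 17 partners and shuttle factors, 4 (23.5%) were lower and 0 higher in dICM than in ICM, where 5.81% of all genes tested were lower. Besides Pomp they were Uchl5, Rad23b and Usp14. Uchl5, a deubiquitinase of the cap, had 18, 16.7 and 16.4 adjusted TPM in dICM, 104 and 109 in Epi, and 41.7, 40.0 and 49.3 in ICM, ordered dICM, ICM, Epi without overlap. dICM was below ICM (-1.30 ± 0.19 SE, adjusted p = 0.0030) and below Epi (-2.57 ± 0.22 SE, adjusted p = 9.1e-05), and Epi was above ICM (1.27 ± 0.22 SE, adjusted p = 0.0031). Usp14, another cap-bound deubiquitinase, had a fold change for dICM over ICM of -1.06 ± 0.22 SE, adjusted p = 0.015, lost without ICM replicate 1 or ICM replicate 3 (up to 0.058). Rad23b, a shuttle factor that carries ubiquitinated proteins to the cap, had -1.25 in the same comparison (adjusted p = 0.0063). Against ICM, Epi had 4 of the 17 (23.5%) higher and 1 (5.88%) lower, where 16.7% of all genes were higher and 13.3% lower. Against Epi, dICM had 5 (29.4%) lower and 0 higher, where 18.6% of all genes were lower and 16.0% higher. The median of the 17 was then -0.49, beside -0.11 over all genes. In Epi over ICM the partners' shares were not far from those of all genes.

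In the wider ubiquitin system few genes passed between dICM and ICM. Of 13 genes of ubiquitin and its activation 1 was lower in dICM (Ube2n, -0.90 ± 0.21 SE, adjusted p = 0.023, lost without ICM replicate 1 or 3 or dICM replicate 1 or 2, up to 0.071) and 0 were higher. Of 12 deubiquitinases 1 was lower (Usp7, -0.72 ± 0.20 SE, adjusted p = 0.041, lost on leaving out any of the 8 libraries, up to 0.11) and 0 were higher. Over all genes tested the share called lower was 5.81%. Against ICM, Epi had 3 higher and 2 lower of the 13, and 3 higher and 1 lower of the 12. Against Epi, dICM had 1 higher and 5 lower of the 13, and 0 higher and 4 lower of the 12. The shares of all genes in these comparisons were those given for the partners, with 16.0% higher in dICM than in Epi. The ubiquitin precursor Ubb had 225 ± 15.3 adjusted TPM in dICM, 202 ± 31.6 in Epi and 321 ± 15.5 in ICM, with an adjusted p of 0.12 for dICM over ICM.

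Genes of the NRF1 and NRF2 route that controls proteasome transcription had 3 of 14 tested members higher and 0 lower in dICM against ICM, where 7.52% of all genes were higher. The list as a whole did not rise: 6 fold changes were positive and 8 negative, with a median of -0.08. Maff, a small MAF protein that pairs with these factors, had 10.5, 16.8 and 24.8 adjusted TPM in dICM, 2.36 and 2.22 in Epi, and 2.96, 1.12 and 3.25 in ICM, and all dICM libraries exceeded all others (2.40 ± 0.35 SE, adjusted p = 0.0029 for dICM over ICM). Mafk, another small MAF, had a fold change of 1.61 ± 0.33 SE, adjusted p = 0.014, lost without ICM replicate 1 (0.053). Sel1l, an endoplasmic reticulum degradation factor, had 0.78 ± 0.21 SE, adjusted p = 0.039, lost on leaving out any of the 8 libraries (up to 0.10). Nfe2l1 itself had 45, 26.8 and 38.8 adjusted TPM in dICM, 10.9 and 7.86 in Epi, and 31.8, 11 and 32.1 in ICM. dICM overlapped ICM, and the fold change was 0.66 ± 0.41 SE, adjusted p = 0.34 for dICM over ICM and 1.85 ± 0.46 SE, adjusted p = 0.014 for dICM over Epi. The second was lost without either Epi library (up to 0.095). Of the 14 genes, Epi against ICM had 0 higher and 4 lower, where 13.3% of all genes were lower. Against Epi, dICM had 7 of the 14 higher and 1 lower, where 16.0% of all genes were higher and 18.6% lower.

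Some calls named above also ended under settings other than leaving out a library, and some genes gained a call. Without the filter on low values, so that all 38924 genes were adjusted together, 4 calls of dICM over ICM were lost: Psmb3 (adjusted p = 0.052), Psmb4 (0.069), Psmg4 (0.086) and Psmd5 (0.094). In Epi over ICM the same setting ended the calls of Psme1 (0.051), Psmg4 (0.054), Psmb3 (0.057), Psmc6 (0.071), Psmc5 (0.072), Psmc1 (0.073), Psma4 (0.091) and Psmb7 (0.096), and in dICM over Epi those of Psma5 (0.051), Psmd13 (0.11), Psmd3 (0.12), Psmb4 (0.13) and Psmb5 (0.15). Rescaling without the most abundant genes ended the calls of Psmg2 (0.051), Psmb7 (0.066), Psma4 (0.081), Psmc6 (0.16) and Psmd6 (0.17) in Epi over ICM, and of Psmb4 (0.095) in dICM over Epi. Median-of-ratios size factors ended those of Psmb7 (0.068), Psmd6 (0.078), Psma4 (0.081) and Psmc6 (0.086) in Epi over ICM, and of Psmb5 (0.067), Psmd13 (0.073) and Psmd8 (0.075) in dICM over Epi. Quantile normalization ended Psmd5 (0.057) in dICM over ICM, and Psmd3 (0.068), Psmd13 (0.082) and Psma5 (0.085) in dICM over Epi. With only the 2 groups compared in the fit, Psmd6 was lost in dICM over ICM (0.070), Psma4 in Epi over ICM (0.064), and Psmb4 (0.050), Psmd13 (0.055) and Psmd3 (0.059) in dICM over Epi. In that last comparison a pseudocount of 0.1 ended Psmb4 (0.054), and a fit with no trend ended Psmb5 (0.050) and Psmb4 (0.055). As for gains, Psmd4 passed as lower in dICM over ICM with quantile normalization (0.047), rescaling (0.0076) and median-of-ratios size factors (0.044). Rescaling also added Psmb7 (0.014), Psmd2 (0.028), Psmd11 (0.040), Psmd3 (0.044) and Psmc4 (0.0497). The same settings gave Epi over ICM 3, 5 and 3 further calls. Psma2 (0.013, 0.030 and 0.025) and Psma7 (0.011, 0.045 and 0.039) were among them each time. A filter of 5 added 3 calls in dICM over ICM and 1 in Epi over ICM.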

How the data were processed

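RNA-seq of 8 pooled embryo libraries was deposited as a table with a signal for each gene, labelled adjusted TPM by the authors. The submitters' processing notes list Bowtie 0.12.5, DESeq and mm9 with no roles. How the values were adjusted, the annotation and strand use were not given in the sources used here. Column totals differed, so the values were treated as a signal rather than as the TPM planned for, and the planned test was kept. No counts were available, so no counting interval is given. Genes reaching 1 in 2 libraries or more (17698) were fitted on log2(value + 1), which understates fold changes of low genes. The fit, limma 3.58.1 in R 4.3.3, had a mean per group and a trend on level (residual degrees of freedom 5, prior 3.97). P-values were two-sided, with Benjamini-Hochberg adjustment over all 17698 genes and a threshold of 0.05. The procedure was tested on simulated data. The genes, lists and tests were chosen with earlier results of these data known. Of the partner and ubiquitin lists, 2 genes are not reported here and were left out of the lists' counts. Every member that passed was named, as were the catalytic and tissue-restricted subunits and the name-only matches. Library values are given for the 4 highest and 4 lowest calls of each comparison and for further called members. Alternatives were other pseudocounts, filters, scalings and fits, and leaving out each library. Promoters came from RefSeq, GRCm38.p6.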

Additional observations from a re-analysis of the deposited data

How the results depend on the processing

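No called proteasome gene and no median of the 46 proteasome genes changed direction under the alternatives run. Medians over all genes did: that of dICM over Epi (-0.11) became 0.01 with a filter of 5, and that of dICM over ICM (0.0044) became -0.04 with quantile normalization. The 1 higher call in dICM over ICM became 0 with no filter and 0 to 1 when a library was left out. The 21 lower calls became 13 to 21 when a library was left out, and rescaling added 6 to them. The 11 higher calls in Epi over ICM became 6 with no filter, 6 after rescaling without abundant genes, 7 with median-of-ratios size factors and 3 to 11 when a library was left out. The 8 lower calls became 13 after rescaling and 2 to 8 when a library was left out. The 2 higher calls in dICM over Epi became 1 with a pseudocount of 0.1, 0 with no filter, 1 with quantile normalization, 1 after rescaling, 0 with only 2 groups fitted, 1 with no trend, and 0 to 2 when a library was left out, and the 20 lower calls became 11 to 20. The median of dICM over ICM (-0.84) became -1.16 after rescaling and -0.90 to -0.74 when a library was left out. That of Epi over ICM (-0.17) became -0.35 after rescaling, -0.33 with median-of-ratios size factors and -0.23 to -0.039 when a library was left out. Leaving out Psme2b and Psmc3ip gave -0.29 and leaving out Psmb10 gave -0.27, both chosen after seeing the data. That of dICM over Epi (-0.43) became -0.57 after rescaling, -0.28 with median-of-ratios size factors and -0.58 to -0.42 when a library was left out. Fits with fewer libraries or more genes tested can lose calls by construction, and why the calls were lost was not tested. Where a group of 2 lost a library, the lone library was assumed to vary like the other groups.

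With the replicate block, the 8 lower calls in Epi over ICM became 5, the 2 higher calls in dICM over Epi became 1, and the median of Epi over ICM became -0.10. The block ended the calls of Psmd6 in dICM over ICM, of Psma4, Psmb3, Psmc1, Psmc6 and Psmd7 in Epi over ICM, and of Psmd3 and Psmb5 in dICM over Epi. Same-numbered ICM and dICM libraries deviated together with correlations of 0.017, 0.103 and 0.131, and different-numbered ones with -0.148 to 0.033. With so few libraries per group, such correlations cannot decide whether the numbers mark pairs. The main fit was planned without pairs. The restriction of the background to genes with a mean of at least 10 was also chosen after seeing the data. Depth is unknown, so the counting error of low values such as those of Psmb10 cannot be estimated.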
